A study of Mus musculus with 4 samples.

Results

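The genes described here are the ligands and receptors of axon guidance, measured in the hippocampus of mice with and without repeated social defeat stress. They are the semaphorins of classes 3 to 7 with the plexins and neuropilins, the ephrins with the Eph receptors, the Slits with the Robos, and the netrins and netrin-Gs with the Unc5 receptors. They were taken by gene symbol among the array rows annotated to exactly 1 gene, with no use of their values, and each gene was represented by its row with the highest mean over the arrays. In all, 74 rows carried such a symbol and gave 68 genes, of 19938 genes with a row of their own. They comprised 20 semaphorins, 9 plexins, 2 neuropilins, 8 ephrins, 13 Eph receptors, 3 Slits, 4 Robos, 4 netrins, 1 netrin-G and 4 Unc5 receptors. By role, 36 were ligands and 32 were receptors.

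RNA of the hippocampus was hybridised to 4 whole-transcript microarrays, 2 for control mice and 2 for stressed mice (R-SDS). All were male C57BL/6JJmsSlc mice aged 11-12 weeks, with no transgene or drug given in the labels. An R-SDS mouse was put for 10 min a day over 10 days with a male ICR mouse that attacked it, and a divider then kept them apart in one cage overnight. Control mice lived in pairs in divided cages without defeat. In the study the stressed mice used for arrays are called susceptible, a class that the sample labels do not carry. Values are log2 signals, so that a difference of 1 is a doubling. They rank a gene between arrays but not one gene against another. Having only 2 arrays a group limits how precisely any value is known.

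Axon guidance molecules steer growing axons and dendrites by attraction or repulsion. Class 3 semaphorins are secreted, and most bind a neuropilin that signals through an A plexin, whereas most membrane-bound semaphorins bind plexins directly. Ephrins and Eph receptors both sit in the membrane and signal in either direction across a cell contact. Slits repel axons through Robo1 and Robo2, and netrin-1 attracts through Dcc and repels through Unc5 receptors. In the adult hippocampus several of these molecules remain at synapses, where they act on spines and mossy fibre terminals, and others serve blood vessels and myelinating cells.

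Of the 68 genes, 59 had a promoter window in the RefSeq table of GRCm38.p6, running from 250 bases before to 50 bases after the start of a transcript, with 75 windows in all. The windows of Ephb4, Robo4, Sema4g and Sema3c are printed because, among the members with a single window whose groups did not overlap, these had the largest differences in either direction. Sema4d, with 3 windows, is not shown. Capitals mark matches on either strand to any of the motifs searched, the GC box GGGCGG, the TATA box TATAAA, the ETS motif CCGGAAG and the glucocorticoid receptor half-site TGTTCT. Only the GC box matched in the windows shown, so no motif there overlaps another.
Ephb4, chr5:137349859-137350158, plus strand: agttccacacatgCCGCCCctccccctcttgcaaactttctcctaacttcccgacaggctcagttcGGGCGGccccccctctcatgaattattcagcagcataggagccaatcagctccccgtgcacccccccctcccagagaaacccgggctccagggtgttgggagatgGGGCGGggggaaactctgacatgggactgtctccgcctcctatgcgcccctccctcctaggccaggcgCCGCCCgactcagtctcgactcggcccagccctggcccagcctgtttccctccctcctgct
Robo4, chr9:37401722-37402021, plus strand: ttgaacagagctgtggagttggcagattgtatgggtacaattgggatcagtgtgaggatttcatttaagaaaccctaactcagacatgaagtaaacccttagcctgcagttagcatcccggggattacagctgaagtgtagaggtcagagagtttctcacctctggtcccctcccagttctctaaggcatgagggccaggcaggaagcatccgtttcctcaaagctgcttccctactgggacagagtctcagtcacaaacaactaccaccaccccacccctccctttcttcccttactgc
Sema4g, chr19:44989094-44989393, plus strand: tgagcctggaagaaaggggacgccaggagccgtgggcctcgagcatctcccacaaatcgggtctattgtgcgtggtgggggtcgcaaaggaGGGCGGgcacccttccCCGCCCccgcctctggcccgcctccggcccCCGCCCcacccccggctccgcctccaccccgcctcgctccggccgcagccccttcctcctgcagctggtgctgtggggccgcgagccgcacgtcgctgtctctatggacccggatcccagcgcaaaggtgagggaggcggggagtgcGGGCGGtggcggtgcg
Sema3c, chr5:17574566-17574865, plus strand: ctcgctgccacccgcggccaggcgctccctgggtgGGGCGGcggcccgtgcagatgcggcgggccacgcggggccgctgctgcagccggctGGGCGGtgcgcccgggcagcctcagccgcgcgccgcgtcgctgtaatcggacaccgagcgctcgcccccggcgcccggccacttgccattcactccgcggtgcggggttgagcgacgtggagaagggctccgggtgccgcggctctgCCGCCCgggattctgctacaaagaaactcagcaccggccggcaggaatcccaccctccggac
The Ephb4 window held 4 GC boxes, 14 CpG dinucleotides and 64.7% G or C. The Robo4 window held 0 GC boxes, 2 CpG dinucleotides and 50.3% G or C. The Sema4g window held 4 GC boxes with 30 CpG dinucleotides, and that of Sema3c held 3 with 42. The absence of the other 3 motifs says only that these letters are not in these windows. Over all 32851 windows of the table, 35.7% held a GC box, against 72% of the 75 member windows. A TATA box was in 13.6% of all windows and 2.67% of member windows, the ETS motif in 8.86% and 2.67%, and the half-site in 19% and 10.7%. The median G or C content was 52.7% over all windows and 64% over member windows, so the member windows also differed in base composition. These matches describe letters and are not binding sites.

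The comparison of R-SDS with Control asks whether gene expression in the hippocampus differed after the stress. Guidance genes differed little between the groups. The differences in log2 value, R-SDS minus Control, ran from -0.24 for Sema4d to 0.35 for Ephb4, and only 5 of 68 lay beyond 0.2 in either direction. By limma, 0 of 68 members and 0% of the 21789 tested rows passed an adjusted p of 0.05, and the adjusted p was 1 for each member. At an unadjusted p of 0.05, 0 of 68 members passed, against 1.01% of tested rows. The study's own thresholds are an unadjusted p under 0.05 and more than 0.5 on the log2 scale. Applied to limma's p rather than that of the study's test, they took 0 members and 0.34% of rows. The t-test named in the study's methods likewise gave 0 members after adjustment and 2 before it, Ephb1 and Sema3c, where 2.02% of all rows passed. A miss does not show that the groups were alike, since the 95% intervals reached from 0.31 to 0.69 on either side of a difference. For 52 members the interval lay within 0.5 in both directions, and for 67 within 1. Sema3b was the exception to the latter.

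**Figure D1:**
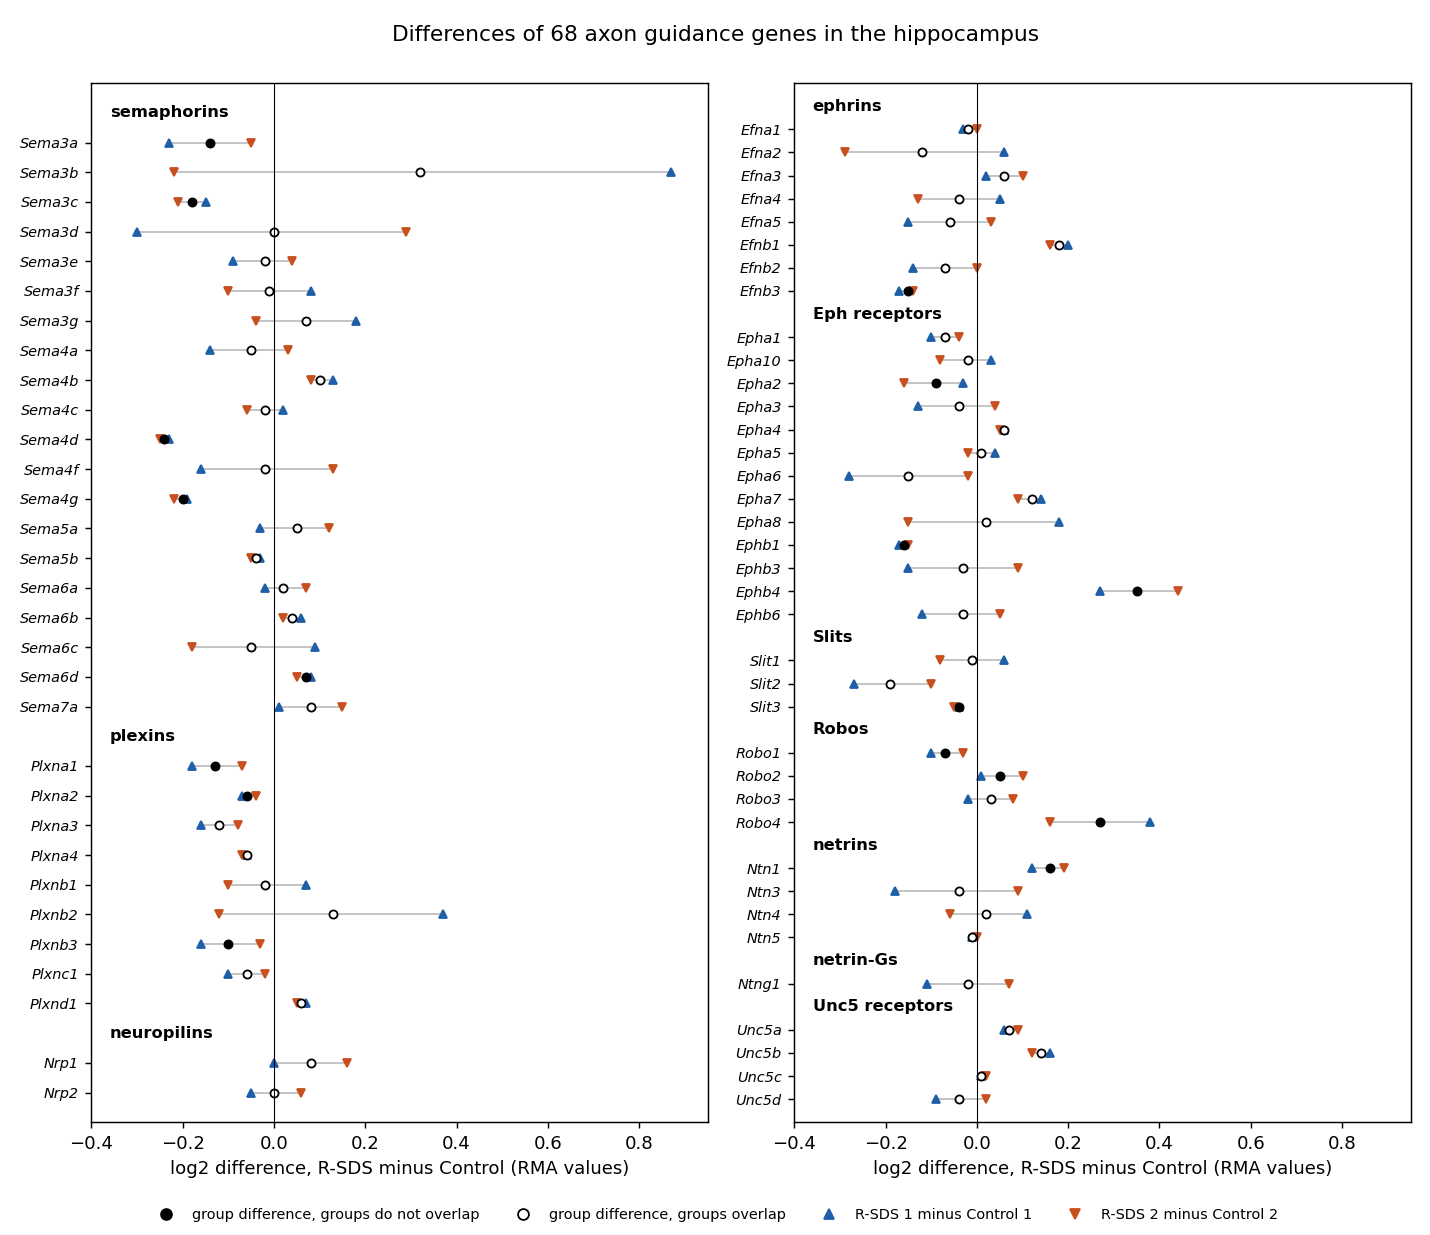
The log2 difference R-SDS minus Control of all 68 members, grouped by family (2 arrays a group). Triangles mark the differences within each replicate number, and the line that joins them is not a confidence interval. The 95% limma intervals are not drawn, and each of them crosses 0. By group difference, Ephb4 lies highest at 0.35 and Sema4d lowest at -0.24.

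The median difference over the members was -0.019, against 0.007 over all tested rows. The median size of the difference was 0.06, against 0.074 over all rows. A lower mean in R-SDS was seen for 41 members and a higher one for 27. Of all 21789 tested rows, 10271 had a lower mean and 11515 a higher one. When each array was set to the same median over all rows, the members' counts became 36 and 32. Among the 36 ligands, 24 had a lower mean as deposited and 20 under that scaling.

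For 17 of 68 members (25%) the R-SDS values lay wholly above or wholly below the Control values, against 18.5% of all tested rows. Of these, 5 were higher in R-SDS (7.35%, with 9.41% of all rows) and 12 were lower (17.6%, with 9.06% of all rows). The higher ones were Ephb4, Robo4, Ntn1, Sema6d and Robo2, and the lower ones were Sema4d, Sema4g, Sema3c, Ephb1, Efnb3, Sema3a, Plxna1, Plxnb3, Epha2, Robo1, Plxna2 and Slit3. This count depended on scaling. With equal array medians over all rows, 6 members did not overlap, beside 16.5% of all rows, 3 higher and 3 lower, of which only Sema4g was among the 17. With equal medians over the tested rows, 4 were higher (with 8.15% of all rows) and 13 lower (with 10.6% of all rows). Among these were 15 of the 17.

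**Figure D2:**
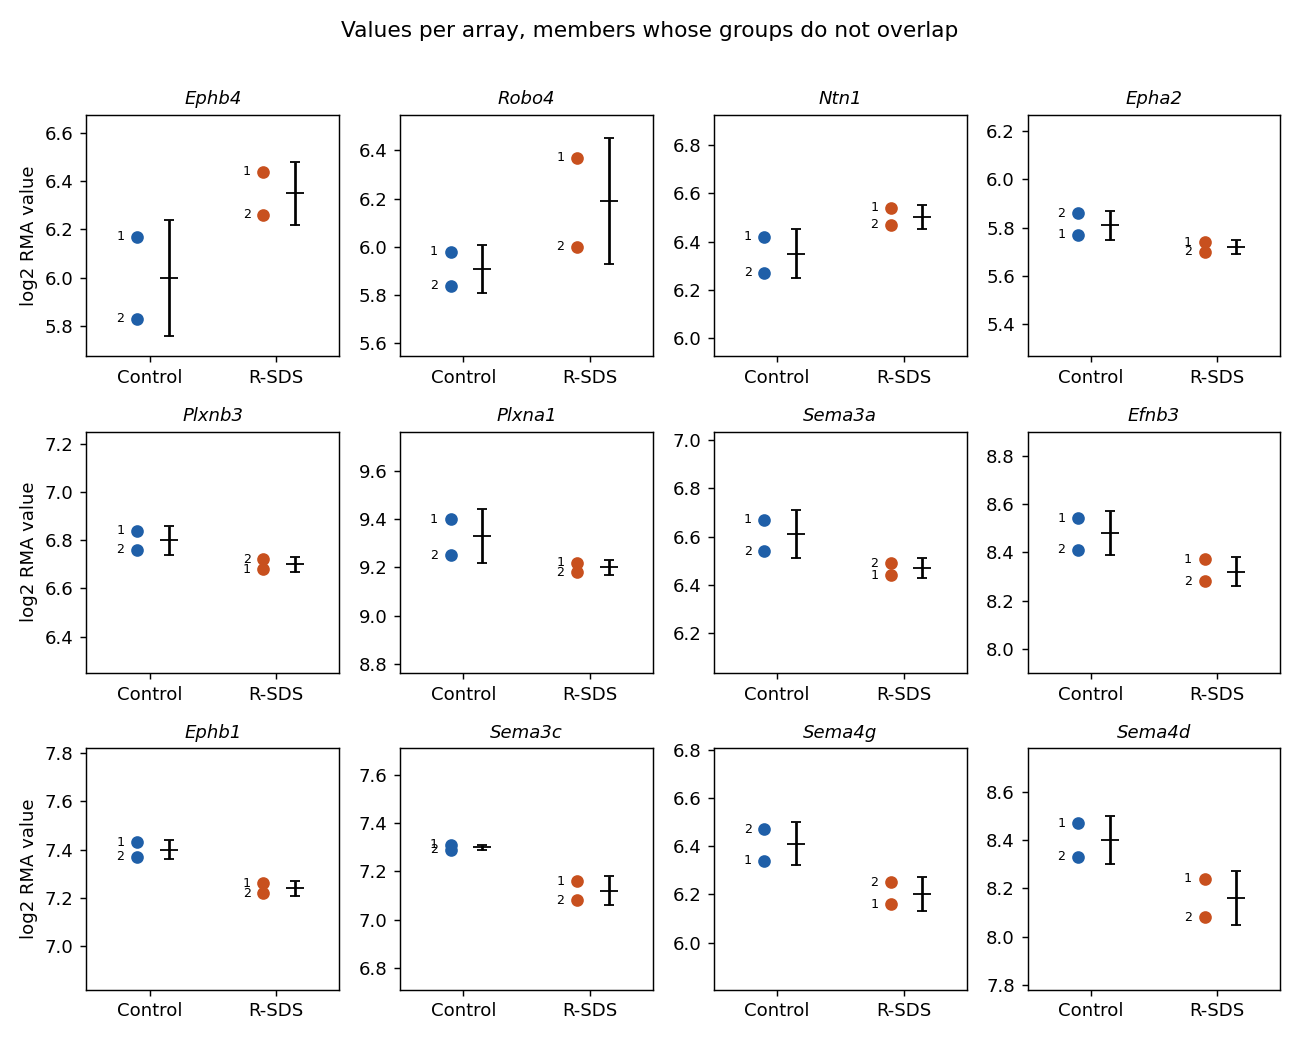
Log2 values of the 12 members with the largest differences among the 17 whose groups did not overlap, by array (Control 1, Control 2, R-SDS 1, R-SDS 2), with bars for the group mean ± SD of 2 arrays. Each vertical axis spans 1 log2 unit around its gene, and the group means differ by 0.35 for Ephb4 and by 0.27 or less for the others.

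The semaphorins comprised 20 ligands, 8 with a higher and 12 with a lower mean in R-SDS, and equal array medians over all rows made this 10 and 10. Among the 7 secreted class 3 members the median difference was -0.010, which became 0.007 under that scaling. Sema3a, a repellent that acts through Nrp1, had 6.67 and 6.54 in the controls and 6.44 and 6.49 in R-SDS. The R-SDS values were the lower pair, by 0.14 on average (SE 0.13, 95% interval from -0.46 to 0.18). Sema3c, which guides cortical axons and cardiac neural crest cells, read 7.31 and 7.29 in Control and 7.16 and 7.08 in R-SDS. Its controls lay 0.02 apart, and its difference was -0.18 (SE 0.13).

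Sema3b differed by 0.32 on average, but its groups overlapped. Its values were 5.89 and 6.13 in Control and 6.75 and 5.91 in R-SDS. One R-SDS array stood above the rest and the other lay among the controls, and the interval ran from -0.36 to 1.01. Without R-SDS replicate 1 the difference was -0.10, and without R-SDS replicate 2 it was 0.74. Sema3d, whose gene neighbours Sema3a in the RefSeq table, had 6.13 and 5.77 in Control and 5.83 and 6.06 in R-SDS. Its means therefore hardly differed, with -0.30 between the arrays numbered 1 and 0.29 between those numbered 2. Sema3f, the ligand of Nrp2 that prunes mossy fibres, had 6.74 and 6.77 in Control and 6.82 and 6.66 in R-SDS, an overlap with a difference of -0.01 (SE 0.13).

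Of the 6 class 4 semaphorins, 5 had a lower mean in R-SDS under every scaling. Sema4d, a membrane ligand of Plxnb1 made by oligodendrocytes and known to promote inhibitory synapses, had 8.47 and 8.33 in Control and 8.24 and 8.08 in R-SDS. All R-SDS values lay below all Control values, and the difference was -0.24 (SE 0.14, interval from -0.58 to 0.10), or 0.846-fold. A further row of Sema4d read 8.18 and 8.25 in Control and 7.72 and 8.13 in R-SDS, also without overlap, with a difference of -0.29 (SE 0.17). Sema4g, another membrane semaphorin, had 6.34 and 6.47 in Control and 6.16 and 6.25 in R-SDS, a difference of -0.20 (SE 0.13). It was -0.19 between the arrays numbered 1 and -0.22 between those numbered 2.

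Of the 7 members in classes 5 to 7, 5 had a higher mean and 2 a lower one under every scaling, and none differed by more than 0.08 as deposited. Sema6a, a transmembrane ligand of Plxna2 and Plxna4 that confines mossy fibres to their layer, had 9.07 and 8.98 in Control and 9.05 and 9.06 in R-SDS. Its groups overlapped and differed by 0.02. Sema6d, a relative of Sema6a that binds Plxna1, had 8.98 and 8.96 in Control and 9.06 and 9.01 in R-SDS, apart but by only 0.07 (SE 0.13). Sema7a, a lipid-anchored ligand that binds integrins and Plxnc1, had 9.44 and 8.89 in Control and 9.45 and 9.04 in R-SDS. The gap of 0.55 between its controls was far wider than the group difference of 0.08.

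Among the receptors of these ligands, all 4 A plexins had a lower mean in R-SDS, both within each replicate number and under every scaling. Their median difference was -0.091. Plxna1 had 9.40 and 9.25 in Control and 9.22 and 9.18 in R-SDS, a separation of -0.13. Plxna2, a receptor of Sema6a, had 8.91 and 8.94 in Control and 8.83 and 8.90 in R-SDS, apart by -0.06. In Plxna3, which pairs with Nrp2 for Sema3f, the values were 6.89 and 7.03 in Control and 6.73 and 6.95 in R-SDS. Those groups overlapped, with a difference of -0.12 (SE 0.15), which was -0.01 without R-SDS replicate 1 and -0.23 without R-SDS replicate 2. Plxna4, which pairs with Nrp1 for Sema3a, had 9.52 and 9.76 in Control and 9.46 and 9.69 in R-SDS, also overlapping at -0.06 (SE 0.16).

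Of the other 5 plexins, Plxnb3, known from oligodendrocytes, had 6.84 and 6.76 in Control and 6.68 and 6.72 in R-SDS, lower in both and by 0.10 in the mean. Plxnb2, a receptor of class 4 semaphorins and of angiogenin, had 8.03 and 7.79 in Control and 8.41 and 7.66 in R-SDS. The R-SDS arrays took the highest and the lowest place, and the difference was 0.13 (SE 0.26). Without R-SDS replicate 1 it was -0.25, and without R-SDS replicate 2 it was 0.50. Neither neuropilin separated the groups. Nrp1 had 9.02 and 8.76 in Control and 9.02 and 8.93 in R-SDS, and Nrp2 had 7.91 and 7.80 against 7.86 and 7.85. The differences were 0.08 (SE 0.15) and 0.00 (SE 0.13), and the latter became -0.01 with equal medians over the tested rows.

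The ephrins, ligands that are anchored by lipid (A) or cross the membrane (B), had a lower mean in R-SDS for 6 of 8 members. The groups separated for 1 of the 8 (12.5%, against 18.5% of all rows). Efnb3, a ligand of Epha4 and Ephb receptors found at hippocampal synapses, had 8.54 and 8.41 in Control and 8.37 and 8.28 in R-SDS. All R-SDS values were lower, with a difference of -0.15 (SE 0.13, interval from -0.48 to 0.17). Efnb1, a ligand of EphB receptors, had 6.74 and 6.42 in Control and 6.94 and 6.58 in R-SDS. It was higher by 0.20 and 0.16 within the replicate numbers, yet its groups overlapped because its controls lay 0.33 apart. Efnb2, a marker of arterial endothelium as well as a neuronal ligand, had 8.40 and 8.09 in Control and 8.25 and 8.09 in R-SDS, a difference of -0.07 (SE 0.16). Efna1, Efna3 and Efna4 lie next to each other in the RefSeq table, and their differences were -0.02, 0.06 and -0.04.

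Of the 13 Eph receptors, 5 had a higher and 8 a lower mean. This became 4 and 9 with quantile normalisation or equal medians over the tested rows. The groups separated for 3 of the 13 (23.1%, against 18.5% of all rows). Ephb4, the receptor of Efnb2 that marks venous endothelium, had 6.17 and 5.83 in Control and 6.44 and 6.26 in R-SDS. Both R-SDS values were above both controls, and the means were 6.00 ± 0.24 and 6.35 ± 0.13 (SD of 2 arrays). The difference of 0.35 (SE 0.17, interval from -0.06 to 0.76) was a fold of 1.28, with a limma adjusted p of 1, and came from 0.27 and 0.44 within the replicate numbers. Its controls lay 0.34 apart, about as far as the groups did, and the difference was 0.53 without Control replicate 1 and 0.18 without Control replicate 2.

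Ephb1, a receptor that works at excitatory synapses, had lower values in R-SDS, with 7.43 and 7.37 in Control and 7.26 and 7.22 in R-SDS. The difference was -0.16 (SE 0.13), at -0.17 and -0.15 within the replicate numbers. Its dimmer row did not follow, with 4.84 and 5.35 in Control and 5.25 and 5.40 in R-SDS, and the mean of both rows gave 0.03. Epha2 was lower in both R-SDS arrays by a smaller amount, from 5.77 and 5.86 to 5.74 and 5.70. Epha4, an EphA receptor of hippocampal synapses that binds ephrin-A3 of astrocytes as well as Efnb3, had 10.50 and 10.40 in Control and 10.56 and 10.46 in R-SDS. These overlapped and differed by 0.06 (SE 0.13). Ephb3 had 7.10 and 6.40 in Control and 6.96 and 6.49 in R-SDS, the widest control gap of all members at 0.70, against a difference of -0.03. Ephb2, a partner of Efnb2, was not analysed here.

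The 3 Slits, secreted repellents, had lower means in R-SDS, except that Slit1 turned to 0.01 with equal array medians over all rows. Slit2 had 8.35 and 8.53 in Control and 8.08 and 8.42 in R-SDS, an overlap at -0.19 (SE 0.17), which was -0.02 without R-SDS replicate 1 and -0.36 without R-SDS replicate 2. Slit1 had 9.26 and 9.33 against 9.32 and 9.25, with a difference of -0.01. Slit3 was separated but nearly level, at 8.67 and 8.64 in Control and 8.63 and 8.60 in R-SDS.

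Their neuronal receptors Robo1 and Robo2, which lie next to each other in the genome, both separated the groups but in opposite directions. Robo1 had 9.16 and 9.08 in Control and 9.06 and 9.05 in R-SDS, and Robo2 had 9.02 and 8.96 in Control and 9.02 and 9.05 in R-SDS. For Robo2 the nearest values of the groups were equal to 2 decimals. The differences of -0.07 and 0.05 were smaller than their standard error of 0.13. Robo4, the endothelial Robo that stabilises vessels, had 5.98 and 5.84 in Control and 6.37 and 6.00 in R-SDS. Its means were 5.91 ± 0.10 and 6.19 ± 0.26 (SD of 2 arrays), and the difference was 0.27 (SE 0.17, interval from -0.14 to 0.68), at 0.38 and 0.16 within the replicate numbers. Without R-SDS replicate 1 it was 0.09. Robo3, its neighbour with 0 coding genes between them and a receptor of commissural axons, had 5.84 and 5.93 in Control and 5.82 and 6.01 in R-SDS, a difference of 0.03.

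Netrins and their receptors gave 1 separated member of 9, where 18.5% of all rows separated the groups. Ntn1, the founding secreted netrin, which adult neurons release at synapses, had 6.42 and 6.27 in Control and 6.54 and 6.47 in R-SDS. Both R-SDS values were higher, by 0.16 in the mean (SE 0.13, interval from -0.17 to 0.48). Ntn5 was the flattest, with 6.03 and 6.02 in Control and 6.02 in both R-SDS arrays. Ntng1, a lipid-anchored synaptic adhesion molecule, had 8.65 and 8.82 in Control and 8.54 and 8.89 in R-SDS, and differed by -0.02 (SE 0.17). Ntng2 was not analysed here.

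The Unc5 receptors did not separate the groups. Unc5b, known from vessel tips as well as neurons, had 7.35 and 6.91 in Control and 7.51 and 7.02 in R-SDS, a difference of 0.14 (SE 0.23) beside a control gap of 0.45. Unc5a had 9.51 and 9.36 against 9.56 and 9.45 (0.07), and Unc5c had 8.37 and 8.53 against 8.38 and 8.55 (0.01). Both overlapped.

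The values also differed by replicate number, of which the labels give no meaning. Within number 1 and within number 2, R-SDS lay on the same side of Control for 37 members, 17 higher and 20 lower, where 27.3% and 22.7% of all rows did so. The differences within the numbers correlated at 0.032 over the 68 genes and at 0.021 over all rows (Pearson's r across genes, which are not independent and share the arrays). The controls lay farther apart than the groups did for 48 members (70.6%), against 74.5% of all rows. A control gap beyond 0.5 was seen for 2 members, Sema7a and Ephb3 (2.94%, against 7.17%).

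**Figure D3:**
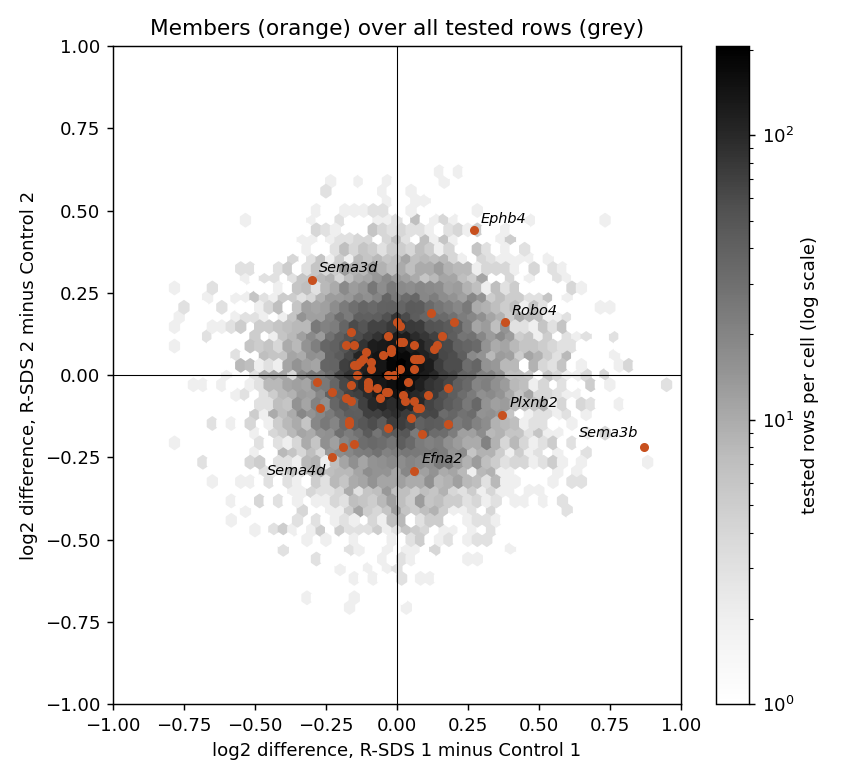
For each member (orange), the log2 difference R-SDS 1 minus Control 1 (horizontal) and R-SDS 2 minus Control 2 (vertical), over all tested rows as shaded cells on a log count scale; 105 rows beyond 1 in either difference are not drawn. Ephb4 and Robo4 are positive and Sema4d negative in both, while Sema3b is at 0.87 in number 1 and -0.22 in number 2.

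Markers of other cell types are set beside some of these values, and whether they varied together was not tested. In such bulk RNA, fewer cells of a type and less RNA per cell cannot be told apart. Without detection calls the labelled tissue was not checked. All 10 markers of CA1 and CA3 pyramidal neurons and all 8 of dentate granule neurons had a row on the array, which holds whatever the tissue. Prox1, which defines granule neurons, read 8.49 and 8.30 in Control and 8.38 and 8.47 in R-SDS. Ephb4 and Robo4 are known from endothelium, and 6 of 11 endothelial markers had a higher mean in R-SDS, 4 of them without overlap (36.4%, where 9.41% of all rows were higher without overlap). Emcn, a sialomucin of capillary and venous endothelium, had 6.07 and 5.93 in Control and 6.53 and 6.22 in R-SDS. Flt1, a VEGF receptor, had 8.07 and 7.74 in Control and 8.46 and 8.16 in R-SDS, whereas the junction gene Cldn5 had 8.33 and 7.97 against 8.14 and 8.06. The summed linear signal of these 11 was 2334 to 2625 in Control and 2469 to 3191 in R-SDS. Of 12 markers of pericytes, smooth muscle and meningeal fibroblasts, 11 had a higher mean and 5 did not overlap (41.7%), with sums of 1868 to 2021 and 2116 to 2357. Of the 8 members also known from endothelium, 6 had a higher mean and 2 did not overlap (25%). The part of these cells in the values of Ephb4 and Robo4 was not tested.

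Of 11 oligodendrocyte markers, 9 had a lower mean and 0 separated the groups, with summed signals of 8021 to 9749 in Control and 8081 to 9041 in R-SDS. Olig2, a transcription factor of the lineage, had 8.46 and 8.0 in Control and 8.02 and 7.95 in R-SDS, a difference of -0.25, and Ermn, a myelin protein, had 9.44 and 9.30 against 8.89 and 9.46 (-0.19). Of the 4 members also known from oligodendrocytes, Sema4d and Plxnb3 had lower means, and Sema5a (0.05) and Sema6a (0.02) higher ones. The part of oligodendrocytes in these values was not tested. All 10 choroid plexus markers measured had a higher mean in R-SDS, with sums of 3306 and 609 in the controls and 13795 and 897 in R-SDS. Most of this was Ttr, the transthyretin made by that epithelium, with 11.38 and 7.43 in Control and 13.21 and 8.79 in R-SDS. Without it the sums were 640 and 437 in Control and 4330 and 454 in R-SDS, and 5 of these 9 markers were lower in R-SDS within number 2. Kcnj13, a channel of the same epithelium, had 7.34 and 5.83 in Control and 10.75 and 5.56 in R-SDS. The R-SDS array with the high choroid plexus signal was the array with the highest Sema3b and Plxnb2, and the part of choroid plexus in these values was not tested. On this scale none of the markers reads 0.

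**Figure D4:**
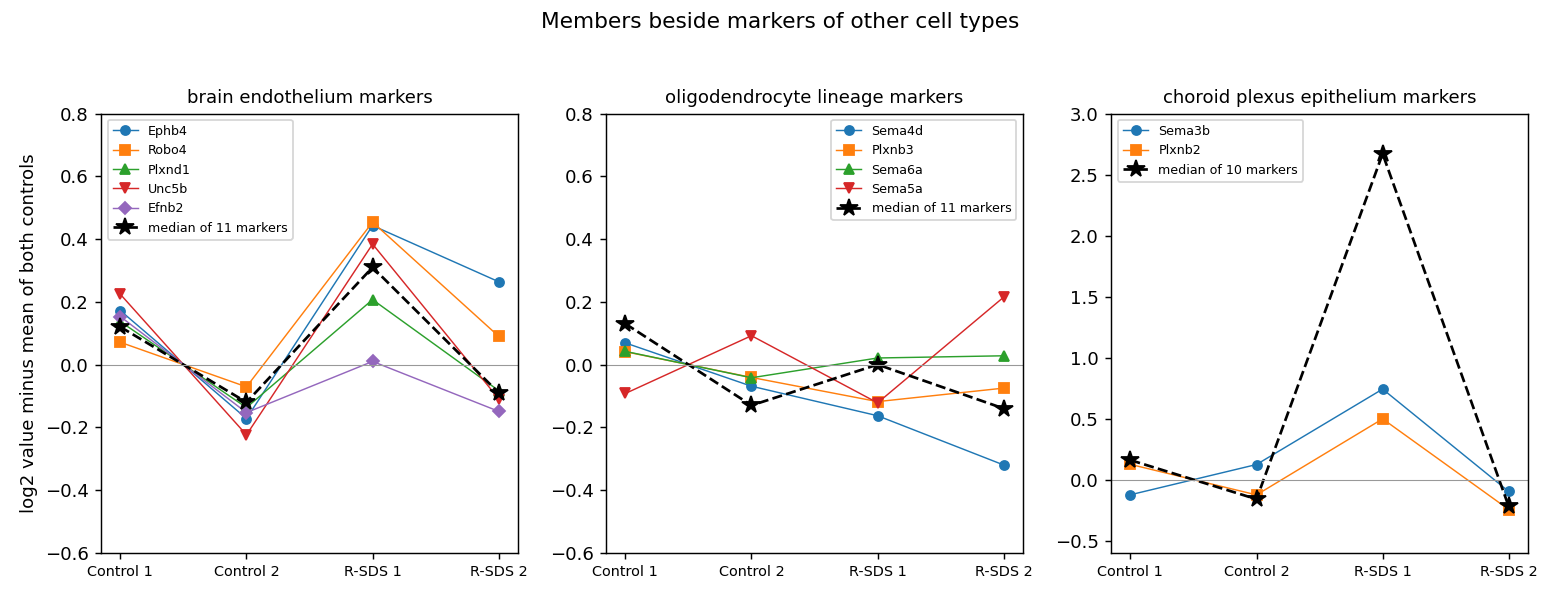
Log2 value minus the mean of both controls, by array, for members known from endothelium (left) and oligodendrocytes (middle) and for Sema3b and Plxnb2 (right), each with the median of the marker list of that cell type or of choroid plexus (dashed). Lines join values of a gene and mark no order, and the right panel has a wider vertical scale, on which the marker median reaches 2.67 in R-SDS 1.

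Beyond these families, 28 co-receptors, other cues and adhesion partners of the pathway were measured, and by limma 0 passed the adjusted or the unadjusted p. In R-SDS 8 had a higher and 20 a lower mean, with a median difference of -0.041. Of them 1 was higher and 5 were lower without overlap, 21.4% in all against 18.5% of all rows. Draxin, a repellent that binds netrin-1 and Dcc, had 5.72 and 5.74 in Control and 5.83 and 6.03 in R-SDS, higher by 0.20 (SE 0.14). Cntn2, an adhesion molecule of axons and myelin, had 8.83 and 8.78 against 8.68 and 8.56, lower by 0.18 (SE 0.13). Dcc, the attractive netrin receptor, overlapped between groups, with 8.25 and 8.62 in Control and 8.31 and 8.49 in R-SDS. Lrrc4c, the partner of Ntng1, had 10.20 and 10.01 against 10.06 and 10.16, and Lrrc4, the partner of Ntng2, had 8.99 and 8.89 against 8.91 and 8.73.

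Of 50 intracellular signalling genes 47 were measured, 24 with a higher and 23 with a lower mean (median 0.002), and again 0 passed either p. Their differences ran from -0.28 to 0.24. Without overlap, 4 were higher and 3 lower, 14.9% in all against 18.5% of all rows.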

How the data were processed

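The deposited table holds log2 values that the authors made by RMA, run in Affymetrix Expression Console. RMA corrects background, normalises the arrays and summarises the probes of each transcript. The 4 array distributions were not identical (medians of all 35556 rows from 5.906 to 6.057), and neither the grouping of arrays for RMA nor a genome build is given in the sources used here. Groups and numbers came from sample titles. The study's methods speak of 2 R-SDS mice, and the labels do not say that the control samples are separate mice, so that part of the spread behind the p-values may be technical. Detection calls and depth do not come with RMA values.

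The 21789 rows with 1 symbol in the platform annotation were tested with limma 3.58.1 (lmFit, eBayes; R 4.3.3), unpaired, two-sided, unfiltered, with Benjamini-Hochberg adjustment over all rows, 2 residual and 4.07 prior degrees of freedom. The procedure was tested on simulated data with changes larger than the difference of any member, which says nothing about smaller ones. All 68 member symbols matched RefSeq (GRCm38.p6). Plots used matplotlib 3.10.9.

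Members named were the 2 largest differences per family, those past an unadjusted p of 0.05, those without overlap and beyond 0.2, ligand and receptor pairs of hippocampal wiring, those with a control gap beyond 0.5, and the 2 largest of each further list. Of the last, the text gives those of the co-receptor, endothelial, oligodendrocyte and choroid plexus lists, and 1 gene that the rule takes is not reported here. Sema3c, Sema6d, Plxnb3, Epha2, Sema3d, Robo3, Ntn5, Efna1, Efna3, Efna4, Sema5a, Cldn5 and Prox1 were named, and the promoters to print chosen, after their values were seen. The members and lists were chosen with earlier results of these data known. Alternatives were quantile normalisation, median centring, a replicate block, the methods' t-test, an intensity trend, a filter on dim rows, the mean of a gene's rows and leaving out each array. Centring on the tested rows was added after seeing the data.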

Additional observations from a re-analysis of the deposited data

How the results depend on the processing

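The count of 0 members past the adjusted p held under every alternative that kept all 4 arrays. Of all tested rows, 1 passed with median centring and 0 under each other such alternative. The thresholds of the study also took 0 members under these alternatives. With an array left out a group holds 1 array, so only differences and counts without overlap are given for those settings. Ephb4 then differed by 0.53 without Control replicate 1, and Sema3b by 0.74 without R-SDS replicate 2, both beyond the threshold of 0.5. The 17 members without overlap (5 higher, 12 lower) became 6 (3 and 3) with median centring, where 16.5% of all rows did not overlap, and 11 of 51 (2 and 9) with a filter on dim rows, where 14.8% did not. Quantile normalisation gave 13 (3 higher and 10 lower), where 21.7% of all rows did not overlap (12.3% higher and 9.43% lower). With an array left out they ranged from 32 to 52 (12 to 26 higher, 20 to 26 lower), beside 52.4% to 64.5% of all rows, since fewer arrays overlap less. For the replicate block a looser count was taken, that of members with the same sign within both numbers. It was 37 (17 higher and 20 lower), or 54.4% of members, where 50% of all rows had the same sign. Same-numbered arrays deviated together (correlation 0.517 over rows), and the labels do not say what a number marks. Under that block 3 members had an unadjusted p under 0.05 (Ephb4, Robo4 and Sema4d, adjusted p = 0.96 in limma), where 4.81% of all rows did.

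Of 37 members checked one by one, 19 kept their sign under every setting, and of all 68 members 23 did. Median centring turned Sema3f (0.0065) and Slit1 (0.00944), centring on the tested rows turned Nrp2 (-0.0114), and the mean of a gene's rows turned Ephb1 (0.0346). The cause was not tested. With an array left out, these changed sign, with these lowest and highest values. Sema3b ranged from -0.0973 to 0.74, Sema3f from -0.0868 to 0.0664, Sema6a from -0.0179 to 0.067, Sema7a from -0.20 to 0.36, Plxna4 from -0.19 to 0.0574, Plxnb2 from -0.25 to 0.50, Nrp1 from -0.0455 to 0.21, Nrp2 from -0.0528 to 0.0593, Efnb1 from -0.00105 to 0.36, Efnb2 from -0.22 to 0.0842, Ephb3 from -0.38 to 0.32, Slit1 from -0.0425 to 0.028, Ntng1 from -0.20 to 0.16, Ntn3 from -0.13 to 0.0535, Unc5a from -0.00123 to 0.15, Unc5b from -0.11 to 0.38 and Unc5c from -0.0702 to 0.0999. With 2 arrays a group and no detection calls, differences of the size seen here cannot be told from the spread between arrays.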
